A study of Mus musculus with 22 samples.

Results

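The comparison asked how chromatin accessibility in liver nuclei of mice with fibrotic steatohepatitis on the FPC diet differed from that of control mice. Male HEP-INTACT mice were fed for 20 weeks. Of the libraries compared, 3 came from livers with advanced disease on the FPC diet and 4 from livers of mice on a low fat diet for the same period. These 7 of the 22 libraries of the series were chosen by their labels, and all 68827 peaks of the deposited table entered the comparison. FPC stands for a diet rich in fructose, palmitate and cholesterol. Mice on the diet were sorted by histology into mild and advanced disease, both with steatosis and inflammation, and marked fibrosis defined the advanced stage. INTACT tags the nuclear envelope of 1 cell type and pulls the tagged nuclei down on beads, here from whole liver. Which promoter drives the tag is not stated in the labels. The other 15 libraries, 4 with mild disease on the FPC diet and 11 from a second diet given for 7 weeks (CDAHFD, which lacks choline, holds a defined amino acid mix and is rich in fat, with its own low fat controls), entered the model fit and are named only where a value needs them.

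ATAC-seq inserts sequencing adapters into DNA that is not wrapped tightly in nucleosomes, so a peak count measures how accessible a stretch of DNA is in the nuclei of a library. Accessible stretches lie at gene starts, where transcription begins, and at distal enhancers, where cell-type-specific factors bind. In the hepatocyte the C/EBP, HNF4A, HNF1 and FOXA factors occupy the enhancers of plasma protein and metabolic genes. AP-1, a dimer of Jun and Fos proteins, and TEAD, the DNA-binding partner of YAP, occupy enhancers that open in injured or regenerating epithelia.

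The promoters that opened or closed are shown first, because their letters can be read beside the values. Promoters were counted where a peak annotated as promoter overlapped a RefSeq promoter window of the same gene by at least 100 bases. Among genes of the lists and the named peaks described below, 14 such promoters had a peak that rose over 4-fold in FPC advanced livers. Of these, 8 held AP-1 or TEAD letters in the 250 bases before the start (5 and 3). Another 8 such promoters had a peak that fell over 2-fold, and 4 of those held C/EBP letters. The named promoter peaks of Cd63, Gramd1b, A930013F10Rik, Gm29571 and Dock4 were not among those counted. Nor was the named intronic peak of Tagln2, for which another peak was counted. The 12 promoters printed here were chosen after their values were seen. The sequences are RefSeq's on GRCm38.p6, printed 5′ to 3′ in the direction of transcription. In the rising promoters the capitals mark TGANTCA (AP-1) and GGAATG on either strand, whose reverse reads CATTCC (TEAD).
Anxa2: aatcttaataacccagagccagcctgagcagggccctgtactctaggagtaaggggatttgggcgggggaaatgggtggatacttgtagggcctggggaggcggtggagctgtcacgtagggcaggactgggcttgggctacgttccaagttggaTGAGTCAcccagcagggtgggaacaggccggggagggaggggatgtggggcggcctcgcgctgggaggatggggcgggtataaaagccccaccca
Tagln2: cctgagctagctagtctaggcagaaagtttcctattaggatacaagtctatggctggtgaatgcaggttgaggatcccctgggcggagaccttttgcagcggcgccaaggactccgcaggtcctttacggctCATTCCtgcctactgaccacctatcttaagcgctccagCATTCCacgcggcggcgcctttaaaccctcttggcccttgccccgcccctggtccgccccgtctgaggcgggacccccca
Il1rn: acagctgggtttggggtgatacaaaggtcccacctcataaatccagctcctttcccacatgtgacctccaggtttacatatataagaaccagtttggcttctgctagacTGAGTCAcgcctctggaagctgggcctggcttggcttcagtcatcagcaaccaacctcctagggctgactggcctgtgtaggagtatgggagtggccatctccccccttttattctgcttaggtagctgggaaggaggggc
Elf1: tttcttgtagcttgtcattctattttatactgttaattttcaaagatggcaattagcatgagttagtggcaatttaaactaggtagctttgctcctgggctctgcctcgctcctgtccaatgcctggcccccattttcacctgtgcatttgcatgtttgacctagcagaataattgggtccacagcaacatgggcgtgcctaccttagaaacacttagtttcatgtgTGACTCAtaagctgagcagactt
Cldn4: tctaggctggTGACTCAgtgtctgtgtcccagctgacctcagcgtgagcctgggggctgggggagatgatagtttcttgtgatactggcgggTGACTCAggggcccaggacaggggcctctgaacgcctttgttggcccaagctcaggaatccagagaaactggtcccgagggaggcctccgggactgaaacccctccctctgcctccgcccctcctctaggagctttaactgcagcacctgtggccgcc
Sox4: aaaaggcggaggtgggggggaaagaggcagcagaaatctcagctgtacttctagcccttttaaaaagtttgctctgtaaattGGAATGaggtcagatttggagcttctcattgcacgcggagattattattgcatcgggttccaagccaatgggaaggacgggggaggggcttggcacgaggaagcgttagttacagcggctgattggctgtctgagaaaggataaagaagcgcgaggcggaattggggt
S100a11: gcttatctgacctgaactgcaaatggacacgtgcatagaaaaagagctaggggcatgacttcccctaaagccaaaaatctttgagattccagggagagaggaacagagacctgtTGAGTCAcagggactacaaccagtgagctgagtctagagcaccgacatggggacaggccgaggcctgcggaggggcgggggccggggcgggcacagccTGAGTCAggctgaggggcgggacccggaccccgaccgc
Erbb2: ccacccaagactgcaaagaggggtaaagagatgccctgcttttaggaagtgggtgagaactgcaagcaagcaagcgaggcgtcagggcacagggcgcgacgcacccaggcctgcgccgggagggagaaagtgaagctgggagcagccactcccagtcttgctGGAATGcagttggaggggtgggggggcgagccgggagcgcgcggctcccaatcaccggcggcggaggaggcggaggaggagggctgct
Anxa2, a phospholipid-binding protein of the membrane skeleton (chr9:69453433-69453682 on the plus strand), carried 1 AP-1 match. Its promoter peak had 43.7, 40 and 38.2 CPM (each library's counts scaled to a common total with TMM factors) in FPC advanced libraries, against 2.18, 2.12, 2.35 and 2.53 CPM in FPC controls. The window of Tagln2, an actin-binding protein (chr1:172499996-172500245 on the plus strand), held 2 TEAD matches. The peak over it had 12.8, 20.8 and 17.8 CPM in advanced and 1.70, 0, 1.51 and 0.759 CPM in control libraries. In both genes every advanced library lay above every control library, as was so at 18469 of all 68827 peaks. The promoters of Cldn4, a claudin of the tight junction (chr5:134946935-134947184 on the minus strand), and S100a11, a calcium-binding protein (chr3:93520246-93520495 on the plus strand), held 2 AP-1 matches each. Il1rn, the interleukin-1 receptor antagonist (chr2:24336610-24336859 on the plus strand), and Elf1, an ETS factor (chr14:79515424-79515673 on the plus strand), held 1. Sox4, a progenitor transcription factor (chr13:28953700-28953949 on the minus strand), and Erbb2, a receptor tyrosine kinase (chr11:98412234-98412483 on the plus strand), held 1 TEAD match each. The log2 changes of these 6 peaks lay between 2.81 (Erbb2) and 3.55 (Il1rn).

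In the falling promoters the capitals mark TTGCNNAA, read on either strand (C/EBP).
Sult2a8: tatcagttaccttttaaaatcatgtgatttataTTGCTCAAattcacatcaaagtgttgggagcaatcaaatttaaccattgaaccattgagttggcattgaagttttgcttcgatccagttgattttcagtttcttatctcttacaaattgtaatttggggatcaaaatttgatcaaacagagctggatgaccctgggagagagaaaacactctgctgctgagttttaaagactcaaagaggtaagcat
F11: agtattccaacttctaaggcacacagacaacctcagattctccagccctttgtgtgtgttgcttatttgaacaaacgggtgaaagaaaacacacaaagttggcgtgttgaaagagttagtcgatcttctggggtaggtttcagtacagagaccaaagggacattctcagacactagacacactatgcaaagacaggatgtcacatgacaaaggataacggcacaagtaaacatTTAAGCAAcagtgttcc
Cyp4f14: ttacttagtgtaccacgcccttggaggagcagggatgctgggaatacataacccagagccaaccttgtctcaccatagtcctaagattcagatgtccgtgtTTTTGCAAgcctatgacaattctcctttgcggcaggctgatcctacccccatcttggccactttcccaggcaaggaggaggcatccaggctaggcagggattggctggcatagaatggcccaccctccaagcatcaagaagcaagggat
Slc10a1: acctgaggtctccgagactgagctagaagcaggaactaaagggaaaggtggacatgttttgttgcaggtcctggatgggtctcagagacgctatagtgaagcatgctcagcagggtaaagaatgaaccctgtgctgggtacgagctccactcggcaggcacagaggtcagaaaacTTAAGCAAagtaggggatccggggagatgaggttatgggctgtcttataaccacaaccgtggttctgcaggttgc
Sult2a8, a sulfotransferase (chr7:14446588-14446837 on the minus strand), had 0.674, 0 and 0.636 CPM at its promoter peak in FPC advanced libraries, against 7.27, 7.95, 8.74 and 7.08 CPM in FPC controls. It was nearly closed in all 3 advanced livers, and the log2 change was -4.16. The marked letters of Sult2a8 lie outside the 200 bp of this peak (chr7:14446520-14446720). Slc10a1, the bile acid importer NTCP (chr12:80968080-80968329 on the minus strand), had 11.5, 4.27 and 8.91 CPM in advanced and 17.7, 16.7, 19 and 16.2 CPM in control libraries. F11, coagulation factor XI (chr8:45262032-45262281 on the minus strand), and Cyp4f14, a fatty acid hydroxylase (chr17:32917357-32917606 on the minus strand), changed by -1.25 and -1.14.

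Over all promoter windows that a peak covered (10021 peaks over 9508 windows), the same letters were counted as a description. AP-1 letters stood in 10.4% of the windows of 674 peaks called higher over 2-fold, in 7.07% of those of 99 peaks called lower over 2-fold and in 4.30% of all covered windows. TEAD letters stood in 12.6%, 9.09% and 10%. C/EBP letters ran the other way, with 7.12%, 22.2% and 7.90%. These were not the only letters of the 21 motifs counted that differed between peaks higher and lower over 2-fold. CTCF core letters stood in 42.7% and 25.3% and KLF letters in 24.6% and 15.2%. Those gaps were wider than the gaps of AP-1 and TEAD letters. NFI letters (11.6% and 21.2%) and glucocorticoid receptor letters (3.41% and 12.1%) ran the same way as C/EBP letters. Over every RefSeq promoter window, peak or not, the shares were 6.75% (AP-1), 12.6% (TEAD) and 9.56% (C/EBP). The windows also differed in base composition: the median GC content was 62% for the peaks higher over 2-fold and 50.4% for those lower over 2-fold. The part of composition in these shares was not tested. The small Maf and NRF2 string TGACTCAGC contains an AP-1 match and stood in 0.349% of covered windows. The share of a library's counts in windows with C/EBP letters was 7.36 to 7.38% in advanced and 7.76 to 7.85% in control libraries (exact two-sided permutation p = 0.0571, adjusted over 21 motifs 0.08). The groups did not overlap, and 0.0571 is the smallest p that 35 divisions of 7 libraries into 3 and 4 allow. Separation was not particular to C/EBP letters, because most of the 21 motifs reached this p in the same exact permutation test. AP-1 letters were among them, at 3.83 to 3.96% in advanced and 3.63 to 3.66% in control libraries. For TEAD letters the groups overlapped (exact two-sided permutation p = 0.171). Their share was 9.28 to 9.37% in advanced and 9.22 to 9.33% in control libraries.

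The libraries held 5971488, 7135523.5 and 6294143.5 counts in FPC advanced and 4165786.5, 3785066, 6039070.5 and 4009349 in FPC controls, so the advanced group was the deeper of the pair. Log2 CPM correlated across peaks at 0.933 to 0.951 within the advanced group, at 0.927 to 0.955 within the controls and at 0.592 to 0.717 between the groups. Nothing in the labels marks a batch, and each title carries a number of its own. The controls fell into pairs: the second principal component of the 7 libraries (6.61% of the variance) put controls 1 and 3 at -52.6 and -37.7 and controls 2 and 4 at 25.1 and 64.2. With controls 1 and 3 alone 16669 peaks were higher and 16919 lower, and with controls 2 and 4 alone 15775 and 15094, against 18964 and 19271 with all 4. Those pairs were set apart after the data were seen. Of 454 called list genes 54 lost the call with controls 1 and 3 alone and 73 with controls 2 and 4 alone, and none reversed. All 14 hepatocyte markers had peaks, with a summed level of 2290 to 2660 CPM in advanced and 3030 to 3220 CPM in control libraries, and 10 of them fell while none rose. Of 14 cholangiocyte markers 13 had peaks and 11 rose, among them Krt7, Krt19, Epcam and Cldn7, and their summed level was 581 to 715 CPM in advanced and 375 to 400 CPM in controls. Cftr had no peak. Peaks were found at 3 of 16 stellate cell markers, 5 of 14 macrophage, 11 of 14 endothelial and 4 of 15 lymphocyte markers. Lrat, Des, Pdgfrb, Dcn, Clec4f, Cd68, C1qa and Cd3e had none. Col1a1 was the stellate marker that rose, with summed levels for the list of 54.4 to 74.9 CPM in advanced and 36.7 to 54.0 CPM in controls. The macrophage list summed to 55.7 to 56.2 CPM in advanced and 65.5 to 76.1 CPM in control libraries (2 higher, 2 lower), the endothelial list to 295 to 306 and 332 to 344 CPM (1 higher, 4 lower), and the lymphocyte list to 245 to 270 and 329 to 351 CPM (none higher, 2 lower). A higher share of nuclei of another type and a more open locus per nucleus cannot be told apart in counts of pooled nuclei.

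Peaks near gene starts were called higher more often than lower, and peaks far from them lower more often than higher. Over all peaks 55.6% differed between FPC advanced and FPC control libraries at an adjusted p under 0.05 in edgeR's quasi-likelihood test, 27.6% higher and 28.0% lower. Among the 20072 peaks within 1 kb of a start, 38.9% were higher and 12.1% lower. Among the 12040 peaks over 50 kb from any start, 19.9% were higher and 41.4% lower. Peaks annotated as promoter-TSS were called higher in 42.6% and lower in 10.5%, those in introns in 21.8% and 33.6%, and intergenic ones in 24.9% and 33.3%. Later introns closed more often (36.7% lower) than first introns (29.7% lower).

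The same shift appears without any calls. Peaks within 1 kb of a start took 46.2 ± 0.49% of a library's counts in FPC advanced (SD, n = 3), against 41.4 ± 0.73% in FPC controls (SD, n = 4). The range was 45.8 to 46.8% in advanced and 40.6 to 42.1% in control libraries (exact two-sided permutation p = 0.0571, the smallest possible). Peaks over 50 kb away took 12.3 to 12.7% in advanced and 14.4 to 14.9% in controls. Because promoter peaks moved as a body, their calls depend on the scale. With scaling factors from peaks within 1 kb alone, a choice made after the data were seen, 21.7% of those peaks were higher and 23.9% lower. The peaks over 50 kb away then stood at 15.9% higher and 51.7% lower, and the median log2 change of all peaks was -0.21 instead of -0.02. The gap between both classes remained, but a change of scale could not have removed it. Each factor moves all peaks of a library alike.

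**Figure D1:**
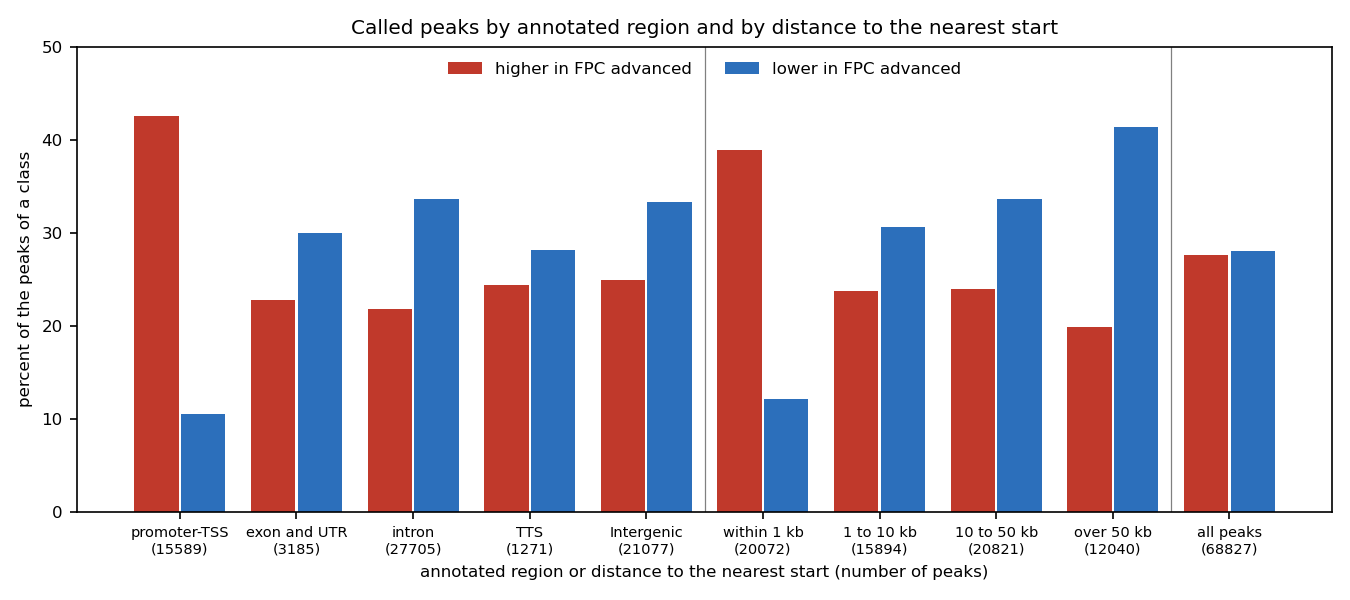
Percent of the peaks of each class that were higher (red) or lower (blue) in FPC advanced than in FPC control libraries at an adjusted p under 0.05, by annotated region and by distance to the nearest transcription start, with the number of peaks below each class. Of peaks within 1 kb of a start 38.9% were higher and 12.1% lower, and of peaks over 50 kb away 19.9% and 41.4%. With factors from peaks within 1 kb alone the near peaks stood at 21.7% higher and 23.9% lower.

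Size of change also differed by direction. Rises over 16-fold numbered 471 and falls over 16-fold 81, whereas between 2-fold and 4-fold 4211 peaks rose and 5443 fell. In all, 11.4% of peaks rose and 9.67% fell by more than 2-fold. Peaks that rose more than 2-fold had a median of 9.15 CPM in FPC advanced and 2.26 CPM in FPC control libraries. Those that fell more than 2-fold had medians of 3.59 CPM in advanced and 10.3 CPM in controls. With the peaks cut into 4 equal classes by mean level, 35.2% were higher and 26.3% lower in the lowest class, and 29.4% and 27.9% in the highest.

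Chromosomes did not share the changes evenly. On chromosome 19, 42.5% of peaks were higher and 12.4% lower, and on chromosome 11 40.8% and 15%. Chromosome 10 ran the other way, with 18.9% higher and 37.7% lower, as did chromosome X with 15.8% and 32.1%. Chromosome 11 took 7.23 to 7.39% of a library's counts in FPC advanced and 6.10 to 6.4% in FPC controls. Chromosome 10 took 5.41 to 5.58% in advanced and 6.07 to 6.27% in control libraries (p = 0.0571 for each, exact permutation). In 13 of 20 chromosomes the advanced and control libraries did not overlap in this share, with 6 higher and 7 lower in advanced livers. The median log2 change on chromosome 19 was 0.45 within 1 kb and 0.09 beyond, and on chromosome 10 it was 0.05 and -0.37. Chromosomes with more protein-coding genes per Mb had higher medians (Pearson's r 0.78 and Spearman's rho 0.66 over 20 chromosomes, which share libraries and depth, as a description). Chromosome 19 has 11.5 such genes per Mb, chromosome 11 has 13.2, chromosome 10 has 7.67 and chromosome X has 5.66. In the CDAHFD comparison, with its own controls, the medians were 0.14 on chromosome 19, 0.13 on chromosome 11 and -0.12 on chromosome 10.

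**Figure D2:**
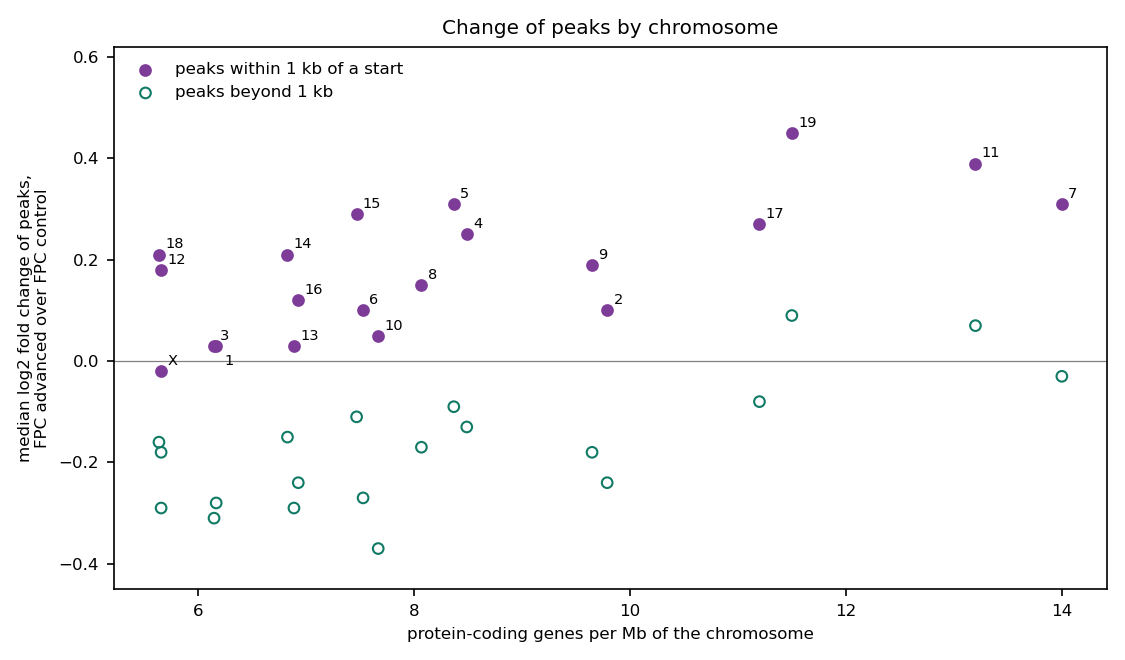
Median log2 fold change, FPC advanced over FPC control, of the peaks of each chromosome within 1 kb of a start (filled, labelled by chromosome) and beyond 1 kb (open), against the protein-coding genes per Mb of the chromosome. Chromosomes 19 and 11 lie highest in both classes, at 0.45 and 0.39 within 1 kb.

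Calls also differed by neighbourhood and by base composition of the promoter. Peaks were divided into 4 classes by the number of other peaks within 250 kb. In the sparsest class, with at most 18 neighbours, 21.9% were higher and 36.4% lower. In the densest, with at least 44 neighbours, 33.6% were higher and 20.8% lower. The median log2 change of peaks within 1 kb of a start was 0.05 in the sparsest and 0.30 in the densest class, and beyond 1 kb it was -0.34 and -0.04. Promoter windows with at most 40% GC were higher in 15.9% and lower in 31.7% of 145 peaks. Windows with 60 to 70% GC were higher in 51.3% and lower in 6.76% of 3477 peaks. Fragment recovery can depend on GC content from library to library. Its part in these patterns was not tested, and no genome sequence was used here.

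Single promoters opened from almost nothing. The peak 896 bp inside Tagln2, in its first intron (chr1:172501042-172501242, mm10), had 36.4, 37.9 and 36.8 CPM in FPC advanced and 0.242, 1.06, 2.35 and 1.52 CPM in FPC control libraries. Cd63 is a tetraspanin of late endosomes and secreted vesicles. Its promoter peak (chr10:128909687-128909887) had 28.7, 37.9 and 31.0 CPM in advanced, against 1.45, 1.06, 1.68 and 2.02 CPM in control libraries. Peaks were named only where the groups did not overlap. Over all 68827 peaks, the advanced libraries all lay above the controls at 18469 and all below them at 18032. The log2 changes were 4.71 ± 0.27 for Tagln2 and 4.36 ± 0.23 for Cd63 (SE, adjusted p 5e-13 and 2e-13). At Anxa2 (chr9:69453503-69453703) the log2 change was 4.13 ± 0.17 (adjusted p 3.1e-15). Gramd1b carries cholesterol from the plasma membrane to the endoplasmic reticulum. Its peak (chr9:40321494-40321694) had 34.7, 38.7 and 42.5 CPM in advanced and 2.42, 1.59, 2.69 and 3.29 CPM in control libraries, a log2 change of 3.93 ± 0.23 (adjusted p 8.2e-13). On the CDAHFD diet the Gramd1b peak rose by 1.66 ± 0.22, and the difference between the diets was 2.27 ± 0.34 (adjusted p 0.00074), one of the 1.60% of peaks with such a difference. For Tagln2, Cd63 and Anxa2 the diets did not differ at this threshold, with differences of -0.30 ± 0.48, 0.72 ± 0.37 and -0.75 ± 0.31.

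Promoter peaks above the median level also fell. A930013F10Rik, a noncoding RNA gene on chromosome 8 (peak at chr8:22636945-22637145), had 6.58, 1.42 and 2.55 CPM in FPC advanced and 35.4, 29.7, 32.8 and 36.4 CPM in FPC control libraries. Its log2 change was -3.29 ± 0.32 (adjusted p 3.9e-09). The promoter of Adgrf1, an adhesion G protein-coupled receptor (chr17:43270293-43270493), had 5.40, 7.41 and 4.45 CPM in advanced, against 50.9, 32.3, 55.8 and 35.4 CPM in controls. Controls varied here from 32.3 to 55.8 CPM, and the log2 change was -2.92 ± 0.37 (adjusted p 2.4e-07). The noncoding gene Gm29571 changed by -1.95 ± 0.18 and Dock4, which activates the small GTPase Rac, by -1.92 ± 0.18. The 4 named rises lay between 3.93 and 4.71 and the 4 named falls between -3.29 and -1.92.

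**Figure D3:**
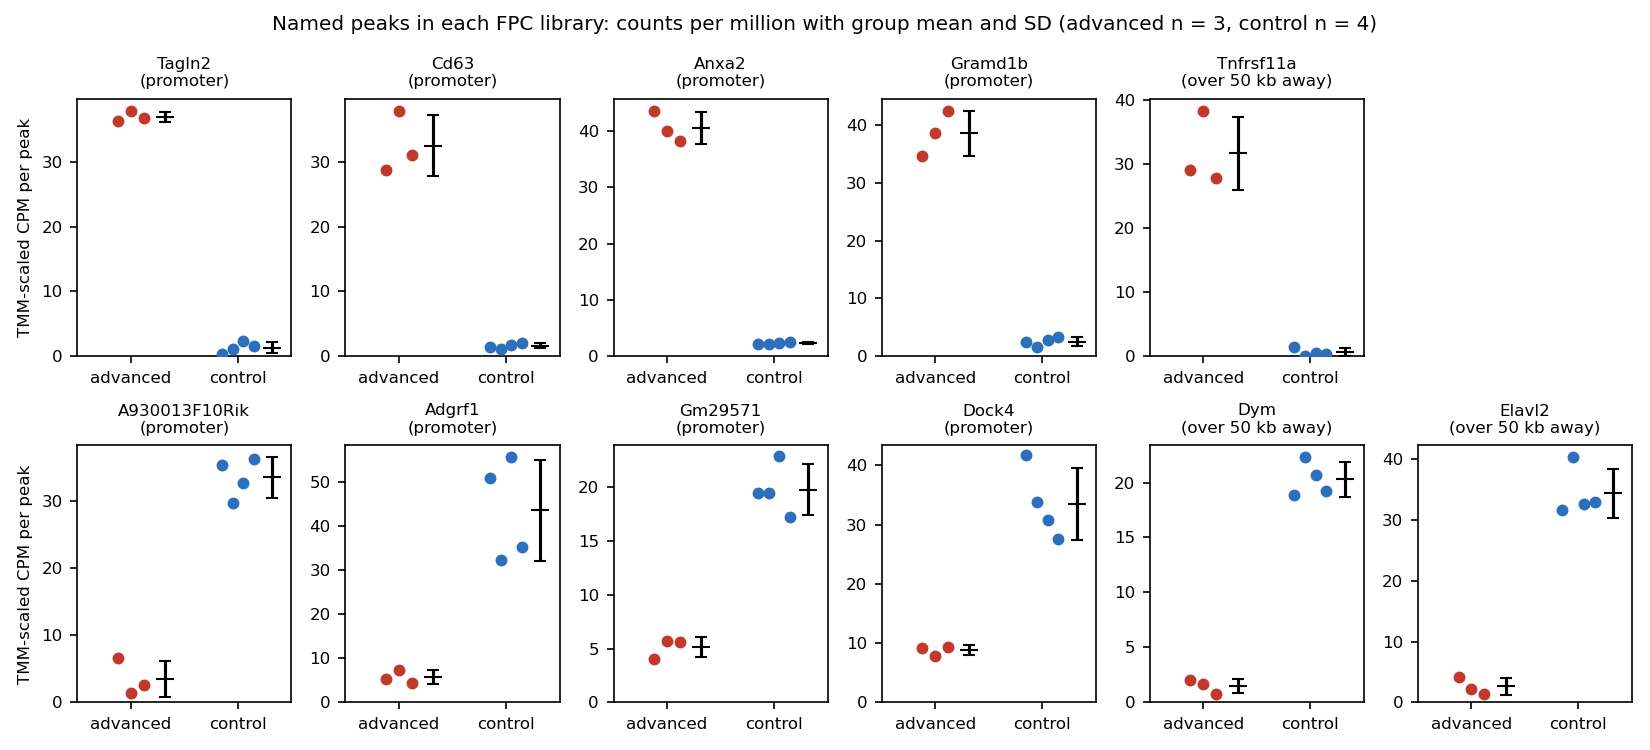
TMM-scaled CPM of 11 named peaks in each FPC advanced (red) and FPC control (blue) library, with the mean and SD beside each group (n = 3 and 4). Peaks that rose are in the upper row and peaks that fell in the lower row. Peaks were named only where the groups did not overlap.

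Peaks far from any start changed as strongly. An intergenic peak 86.3 kb from the start of Tnfrsf11a, the receptor RANK (chr1:105866970-105867170), had 29.0, 38.2 and 27.7 CPM in FPC advanced and 1.45, 0, 0.504 and 0.253 CPM in FPC control libraries. It was the largest rise among the named peaks, at 5.77 ± 0.36 on the log2 scale (adjusted p 2.7e-12). A peak 227 kb from Elavl2, an RNA-binding protein of neurons (chr4:91144771-91144971), fell to 4.21, 2.28 and 1.43 CPM in advanced, against 31.7, 40.3, 32.6 and 32.9 CPM in control libraries. In Dym, a protein of the Golgi, an intronic peak on chromosome 18 changed by -3.73 ± 0.27 (adjusted p 3.7e-11). The nearest start is an annotation and no evidence that a far peak acts on that gene.

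Whole neighbourhoods rarely changed as 1 block. Among 3016 genes with at least 6 peaks within 50 kb, 37 had every peak called higher and 26 every peak called lower. At 1523 of them (50.5%) some peaks were higher and others lower, and at 41 no peak was called. Peaks overlap another peak in 8.87% of the table, so neighbouring values share reads in places. B4galt6 makes lactosylceramide, and all 8 of its peaks on chromosome 18 rose, by 2.15 to 5.80. Its summed counts were 104, 140 and 124 CPM in FPC advanced and 16.1, 15.5, 11.2 and 14.0 CPM in FPC control libraries (log2 change 3.14 ± 0.16, adjusted p 2.2e-13). The promoter of B4galt6 rose by 3.73 and the peak farthest upstream by 2.68. Eml1, a microtubule-associated protein on chromosome 12, had 64.4, 100 and 68.3 CPM over its 7 peaks in advanced and 12.7, 21.2, 14.2 and 16.1 CPM in control libraries. Its peaks were uneven, with the peak annotated as promoter at 3.67 and a peak in the 5′ UTR at 0.57. The latter lies 313 bp from another annotated start of Eml1. The noncoding genes A730004F24Rik (6 peaks) and 8430430B14Rik (10 peaks) rose by 3.22 ± 0.17 and 2.34 ± 0.14. All peaks of A730004F24Rik are intergenic and lie within 6.37 kb of DNA, none of them at its start.

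Among the loci that closed throughout, Capn8, a calpain protease described in the stomach, had 12.6, 11.8 and 20.4 CPM over 7 peaks in FPC advanced and 77.8, 89.7, 89.9 and 115 CPM in FPC controls. The 2 peaks upstream of the start changed by -1.78 and -2.30, the first inside the gene by -1.18 and the last by -5.03. The log2 change of the sum was -2.64 ± 0.24 (adjusted p 2.3e-09). Ackr4, a scavenging chemokine receptor, changed by -1.08 ± 0.15 over 6 peaks, none of which lies at its start. Gm20052 and Gm12718, both of predicted transcripts, changed by -2.76 ± 0.17 and -2.21 ± 0.17. All peaks of Gm20052 are intergenic, and none lies at its start.

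Promoter and distal peaks of a gene could move apart. Of 7104 genes with both kinds within 50 kb, 2456 were called in both. The 2 sums went the same way in 2008 of them and opposite ways in 448 (18.2%), and that last count was 283 without FPC advanced library 2 and 252 with FPC controls 2 and 4 alone. Dnm3, a dynamin, had promoter levels of 77.4, 74.6 and 85.7 CPM in FPC advanced, against 135, 141, 147 and 155 CPM in FPC controls. Its distal peak had 25.2, 37.5 and 30.0 CPM in advanced, against 2.16, 1.20, 0 and 2.33 CPM in controls. Nmi, which binds Myc and STAT proteins, had 38.4, 43.8 and 41.1 CPM at its promoter in advanced and 65, 56.2, 51.6 and 61.6 CPM in control libraries. Its single distal peak had 5.69, 6.25 and 1.15 CPM in advanced libraries, low in the last of them, and no counts in any control. Summed over the advanced libraries it had 35 counts, at least 11.5-fold higher against a floor of 3 counts over the control group. At Krtcap3, a keratinocyte-associated protein, the promoter had 18.8, 27.8 and 21.9 CPM in advanced and 6.62, 4.57, 6.45 and 4.83 CPM in controls. The distal peak of Krtcap3 had 4.06, 1.39 and 3.85 CPM in advanced and 19.5, 9.63, 14.5 and 19.8 CPM in control libraries. Rad52, a recombination protein, changed by 0.63 ± 0.19 at its promoter and by -3.71 ± 0.50 at its distal peak. The promoter change of Rad52 was 0.31 (adjusted p 0.18) with cyclic loess offsets and 0.51 (adjusted p 0.055) without FPC advanced library 2.

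The gene lists were chosen with earlier results of these data known, and were read as counts summed over all peaks within 50 kb of a start. Over all 15686 genes 30.7% were higher and 30.5% lower, with a median log2 change of 0.01, and each list stands beside those shares. Transcription factors of biliary, progenitor and plastic epithelia were higher in 24 and lower in 8 of 35 (68.6% and 22.9%, median 0.36). Foxj1, the master factor of motile cilia, had 44.8, 62.8 and 46.8 CPM in FPC advanced and a mean of 17.2 ± 2.03 CPM in FPC controls (SD, n = 4), a log2 change of 1.60 ± 0.14. Sox4 rose by 1.00 ± 0.09. Grhl2, an epithelial factor of cell junctions, rose by 3.86 ± 0.44, with a mean of 8.89 CPM in advanced and 0.577 CPM in control libraries. Other members moved both ways: Runx2, a factor of bone and cartilage, rose by 2.10 ± 0.26, while Gata3 changed by -0.83 ± 0.12 and Snai2 by -0.66 ± 0.10.

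Keratins and intermediate filaments were higher in 9 and lower in 2 of 11. The single peak of Krt7, a keratin of bile duct cells, had 7.34, 9.33 and 7.10 CPM in FPC advanced, against a mean of 1.00 ± 0.50 CPM in FPC controls (SD, n = 4). Lmna, which encodes lamins A and C of the nuclear envelope, had 242, 268 and 228 CPM over 12 peaks in advanced and a mean of 148 ± 9.78 CPM in controls, a log2 change of 0.73 ± 0.06. Krt20 rose by 1.16 ± 0.26, and Synm fell by 0.90 ± 0.11. Lmnb1 changed by -0.19 ± 0.06, with an adjusted p of 0.052, 0.061 and 0.064 without advanced library 1, advanced library 2 and control 3. Krt7 and Krt19, which led the list, are also counted among the cholangiocyte markers, and the part of bile duct nuclei in these rises was not tested.

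Among integrins, laminins and their partners 12 were higher and 8 lower of 26. Lama5, the laminin chain of epithelial basement membranes, had 63.3, 83.2 and 77.5 CPM in FPC advanced against 17.7 ± 3.02 CPM in FPC controls (SD, n = 4), and rose by 2.10 ± 0.12 (adjusted p 1.1e-12). Itgb4, Itga3 and Itga6, subunits of laminin receptors, rose by 2.61 ± 0.26, 1.13 ± 0.16 and 0.76 ± 0.13, and their partner Itgb1 did not pass, at 0.08 ± 0.08. Itgb8 and Itgb6, of other epithelial integrins, rose by 3.71 ± 0.39 and 1.21 ± 0.20. Itgb8 and Itgb4 have 1 peak each, with control means of 0.99 and 1.72 CPM and advanced means of 13.3 and 10.6 CPM. Itga1 and Fn1, a collagen receptor subunit and fibronectin, changed by -0.62 ± 0.07 and -0.58 ± 0.06.

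The actin cytoskeleton and focal adhesion list was higher in 21 and lower in 3 of 33 (63.6% and 9.09%). Tagln2 led it with 85.5, 107 and 98 CPM over 5 peaks in FPC advanced and 5.76 ± 0.912 CPM in FPC controls (SD, n = 4). S100a11 had 55.0, 57.2 and 63.2 CPM in advanced, against 11.1 ± 2.08 CPM in controls. S100a6, another member of the S100 family, rose by 3.24 ± 0.43 and Rhoc, a small GTPase, by 1.60 ± 0.11. S100a6 has 1 peak, with means of 7.08 CPM in advanced and 0.736 CPM in control libraries. The 3 members that fell were Zyx, Rnd3 and Arhgap29, at -0.22, -0.59 and -0.27. Zyx had an adjusted p of 0.058 without control 1 and 0.059 without control 3. Tight junction and polarity genes were higher in 11 and lower in 6 of 24. The claudins diverged: Cldn6 rose by 3.71 ± 0.22, Cldn7 by 3.71 ± 0.38 and Cldn4 by 1.20 ± 0.14, while Cldn8 changed by -1.65 ± 0.33 and Cldn1 by -0.58 ± 0.11. Cldn6 had 24.7, 28.6 and 27.9 CPM at its peak in advanced and 1.97 ± 0.553 CPM in controls. The 1 peak of Cldn7 had means of 15.9 CPM in advanced and 1.23 CPM in control libraries.

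**Figure D4:**
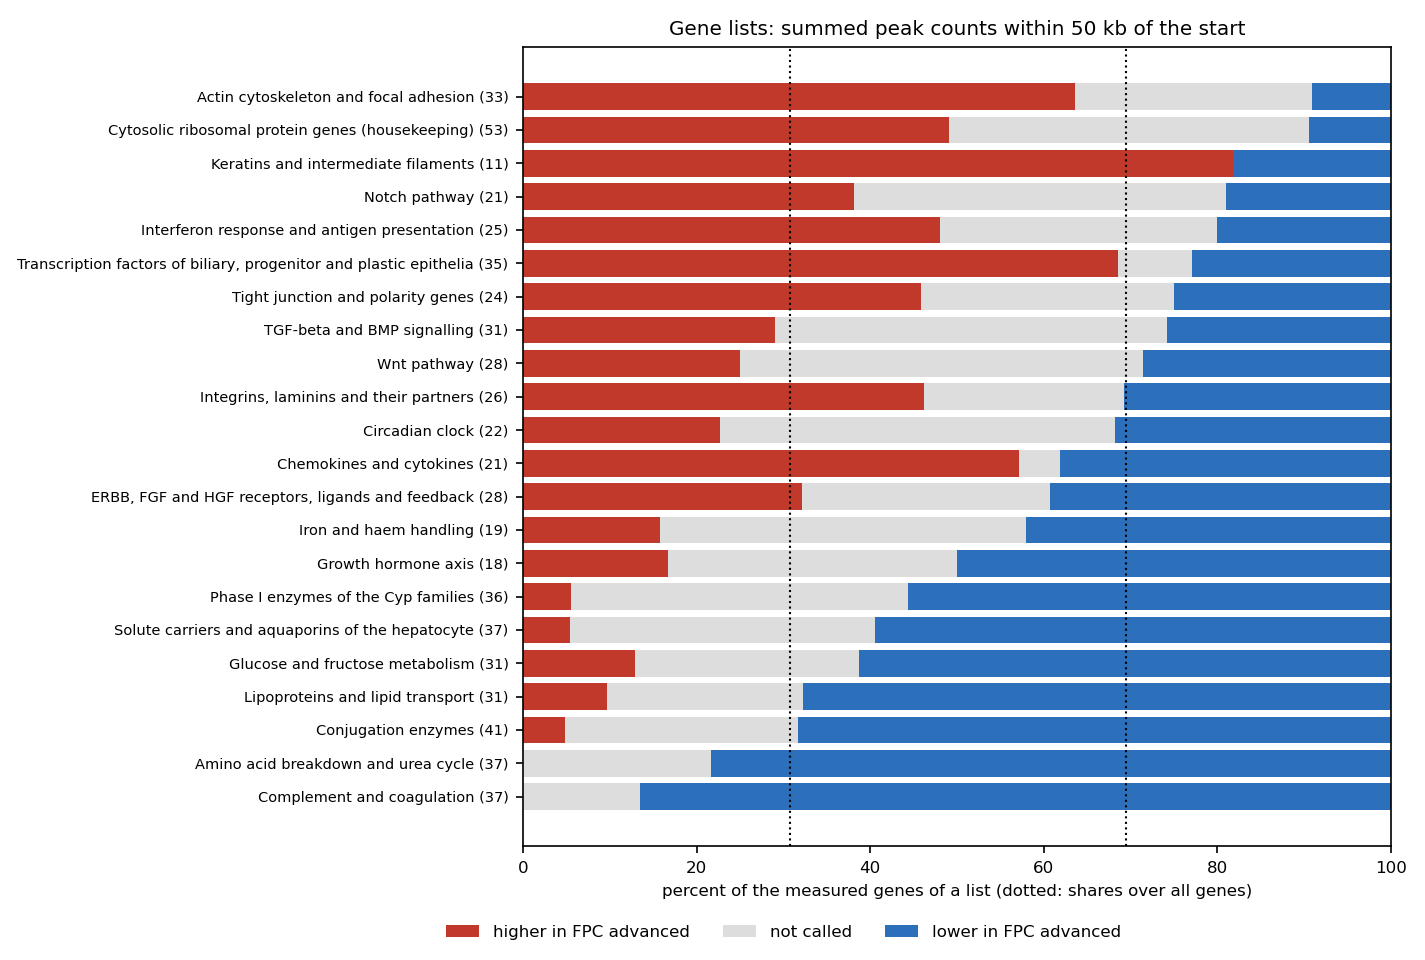
Percent of the measured genes of each list (number in brackets) whose summed peak counts were higher (red) or lower (blue) in FPC advanced than in FPC control libraries, with genes that did not pass in grey. Dotted lines mark the shares over all genes, 30.7% higher and 30.5% lower. Complement and coagulation genes show no higher member and 32 of 37 lower.

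Signalling lists were mixed and close to the shares over all genes. In the Notch pathway 8 of 21 were higher and 4 lower, which became 5 and 7 with scaling factors from promoter peaks. Nrarp, a feedback inhibitor induced by Notch, had 65.7, 80.0 and 76.7 CPM in FPC advanced and 21.6 ± 4.80 CPM in FPC controls (SD, n = 4), and Hes1, a Notch target, rose by 0.47 ± 0.06. Hes1 stood at 0.19 (adjusted p 0.089) over its promoter peaks alone. Lfng, which glycosylates Notch, rose by 3.17 ± 0.42, with a mean of 7.94 CPM in advanced and 0.936 CPM in control libraries. Wnt genes were higher in 7 and lower in 8 of 28. Ligands Wnt7b and Wnt4 rose by 1.03 ± 0.09 and 0.98 ± 0.08, whereas the R-spondin Rspo3 changed by -1.68 ± 0.26, its receptor Lgr4 by -0.80 ± 0.08 and the antagonist Dkk4 by -2.80 ± 0.21.

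TGF-beta and BMP signalling genes were higher in 9 and lower in 8 of 31, a balance that turned to 6 and 11 with factors from promoter peaks and to 6 and 9 with FPC controls 1 and 3 alone. The ligand Tgfb1 had 21.5 ± 2.33 CPM in FPC advanced and 8.91 CPM in FPC controls on average, and rose by 1.27 ± 0.15. The coreceptor Tgfbr3 had 40.7, 30.2 and 36.0 CPM in advanced and 92.0 ± 5.96 CPM in control libraries. The BMP receptor Acvr1 had 160, 150 and 159 CPM in advanced and 252 ± 11.1 CPM in controls. Tgfbr3 changed by -1.38 ± 0.09 and Acvr1 by -0.69 ± 0.05. In the ERBB, FGF and HGF list 9 were higher and 11 lower of 28, which was 11 and 8 with cyclic loess offsets, 11 and 10 without FPC control 3 and 10 and 8 with controls 2 and 4 alone. Its receptors moved apart: Erbb2 rose by 2.72 ± 0.41, while Erbb4, Met and Erbb3 changed by -1.21 ± 0.09, -0.77 ± 0.08 and -0.51 ± 0.10. Erbb4 had 41.8, 44.0 and 38 CPM in advanced and 95.1 ± 6.02 CPM in controls. Erbb2 has 1 peak, with means of 7.99 CPM in advanced and 1.26 CPM in control libraries. Ligands of the family moved both ways, with Hbegf at 0.85 ± 0.10, Btc at 0.66 ± 0.12 and Areg at -0.83 ± 0.18 (-0.50, adjusted p 0.058, with controls 2 and 4 alone).

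Chemokines and cytokines were higher in 12 and lower in 8 of 21. Cx3cl1, a membrane-bound chemokine for monocytes, had 33.5, 50.4 and 39.9 CPM in FPC advanced and 10.9 ± 3.89 CPM in FPC controls (SD, n = 4), a log2 change of 1.97 ± 0.18. Lgals3, the lectin galectin-3, rose by 1.48 ± 0.11, and Cxcl5, which attracts neutrophils, by 3.63 ± 0.41. Cxcl2, another neutrophil chemokine, changed by -1.38 ± 0.23 and the B cell cytokine Tnfsf13b by -1.81 ± 0.41 (-1.17, adjusted p 0.060, with controls 2 and 4 alone). Both have 1 peak, with means of 5.93 and 3.39 CPM in advanced and 15.2 and 11.4 CPM in control libraries. In the interferon and antigen presentation list 12 were higher and 5 lower of 25. Ifit2, an interferon-induced gene, had 23.3, 23.0 and 25.9 CPM in advanced and 5.81 ± 1.22 CPM in control libraries. Class II genes H2-Aa, H2-Ab1, Cd74 and Ciita, their activator, rose by 1.44 ± 0.14, 1.15 ± 0.16, 0.87 ± 0.13 and 0.67 ± 0.11. H2-Aa and H2-Ab1 are expressed by macrophages and B cells. In the same libraries the macrophage markers Ptprc and Itgam changed by -0.94 ± 0.15 and -0.73 ± 0.13, and Adgre1 and Csf1r rose by 0.52 ± 0.16 and 0.68 ± 0.22.

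Growth hormone axis genes were lower in 9 and higher in 3 of 18. With controls 2 and 4 alone 5 were lower. Igf1, the hormone's secreted effector, had 221, 260 and 192 CPM in FPC advanced and 437, 265, 452 and 254 CPM in FPC controls. Controls 1 and 3 stood far above all advanced libraries and control 2 barely (265 against at most 260 CPM). Control 4, at 254 CPM, overlapped the advanced group. The log2 change of Igf1 was -0.66 ± 0.24 (adjusted p 0.021) and -0.19 (adjusted p 0.57) with controls 2 and 4 alone. Without control 1 the adjusted p was 0.084, without control 3 0.10, without advanced library 1 0.052 and without advanced library 3 0.090. Igfals, which carries Igf1 in plasma, changed by -0.66 ± 0.17, and by -0.43 (adjusted p 0.092) with controls 2 and 4 alone. The receptor Ghr changed by -0.39 ± 0.06. Jak2, the kinase of the receptor, had 89.0, 83.8 and 94.8 CPM in FPC advanced and 60.9 ± 3.42 CPM in FPC controls (SD, n = 4). Lifr, the receptor for leukaemia inhibitory factor, had 301, 293 and 318 CPM over 18 peaks in advanced and 446 ± 48.1 CPM in control libraries. Clock genes were higher in 5 and lower in 7 of 22, a balance of 11 and 3 with cyclic loess offsets, 7 and 4 without FPC control 4, and 5 and 4 or 6 and 5 with either pair of controls alone. Csnk1e and Csnk1d, kinases that mark PER proteins for turnover, rose by 0.86 ± 0.08 and 0.41 ± 0.06, and Csnk1d stood at 0.03 (adjusted p 0.75) over its promoter peaks alone. The core clock genes Arntl and Clock did not pass, at 0.12 and -0.26.

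In each list of hepatocyte metabolism more genes were lower than higher. In amino acid breakdown and the urea cycle none was higher and 29 of 37 were lower (78.4%, median -0.56). Ido2, which opens the kynurenine pathway, had 54.0, 60 and 50.8 CPM in FPC advanced and 133 ± 13.7 CPM in FPC controls (SD, n = 4), and Aass, which starts lysine breakdown, had 200, 191 and 192 CPM in advanced and 364 ± 8.58 CPM in control libraries. Tdo2, Arg1 and Otc changed by -1.05 ± 0.11, -0.96 ± 0.12 and -0.81 ± 0.10. Complement and coagulation genes were lower in 32 of 37 and higher in none (86.5%, median -0.47), and lower in 21 with FPC controls 2 and 4 alone. F10, the protease that cleaves prothrombin, had 113, 90.8 and 106 CPM in advanced and 194 ± 5.37 CPM in controls. C8b, of the membrane attack complex, had 50.6, 40.1 and 47.4 CPM in advanced and 95.4 ± 9.66 CPM in controls. F5 changed by -1.17 ± 0.13, and C3, C9, Cfb, Proc and C4bp did not pass.

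Lipoproteins and lipid transport genes were lower in 21 and higher in 3 of 31. Fabp2, a fatty acid-binding protein, had 62.9, 65 and 62.8 CPM in FPC advanced and 119 ± 13.4 CPM in FPC controls (SD, n = 4), but its change over promoter peaks alone was -0.31 (adjusted p 0.20) instead of -0.90 ± 0.09. Apoa4, Apoc1 and Apoc2 were the 3 that rose, by 0.62 ± 0.12, 0.20 ± 0.08 and 0.24 ± 0.10. Without advanced library 1 or 3 neither Apoc1 nor Apoc2 passed (adjusted p 0.12 to 0.16), nor did Apoc1 without control 1 (0.050) or Apoc2 without control 3 (0.076) or control 4 (0.054). Glucose and fructose metabolism was lower in 19 and higher in 4 of 31. The hexokinases that rose, Hk2 and Hk1 (2.74 ± 0.31 and 2.01 ± 0.22), are those of non-hepatocyte tissues. Hk1 had 14.9, 22.6 and 14.6 CPM at its 1 peak in advanced and 4.32 ± 0.922 CPM in controls. Ppp1r3b, which targets a phosphatase to glycogen, had 258, 186 and 217 CPM in advanced and 366 ± 38.3 CPM in control libraries.

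Drug metabolism and transport followed. Phase I enzymes of the Cyp families were lower in 20 and higher in 2 of 36. Cyp2d9, a male-biased enzyme, had 63.3, 39.2 and 55.0 CPM in FPC advanced and 147 ± 24.6 CPM in FPC controls (SD, n = 4), and Cyp2u1 changed by -0.84 ± 0.06 (adjusted p 1.5e-11). Cyp2a4 and Cyp4b1 rose by 1.33 ± 0.29 and 1.36 ± 0.32. Near-identical copies in the Cyp2a, Cyp2c, Cyp2d and Cyp4a clusters can share reads, so values of single members are uncertain. Conjugation enzymes were lower in 28 and higher in 2 of 41. Inmt, a methyltransferase, had 123, 130 and 125 CPM in advanced and 223 ± 18.6 CPM in controls, and Gsta2, a glutathione transferase, had 53.3, 62.5 and 69.6 CPM in advanced and 102 ± 7.25 CPM in controls. Gstm2 and Gstm3 were the 2 that rose, and Gstm3 stood at 0.25 (adjusted p 0.080) with controls 1 and 3 alone. Solute carriers and aquaporins were lower in 22 and higher in 2 of 37. The organic anion importers Slco2b1, Slco1a1 and Slc10a1 changed by -0.85 ± 0.09, -1.11 ± 0.12 and -1.06 ± 0.11. Iron and haem genes were lower in 8 and higher in 3 of 19. Slc40a1, the iron exporter ferroportin, had 179, 188 and 181 CPM in advanced and 287 ± 14.8 CPM in controls. Ireb2, an iron sensor, changed by -0.90 ± 0.12 over 8 peaks and by -0.09 (adjusted p 0.33) within 10 kb.

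**Figure D5:**
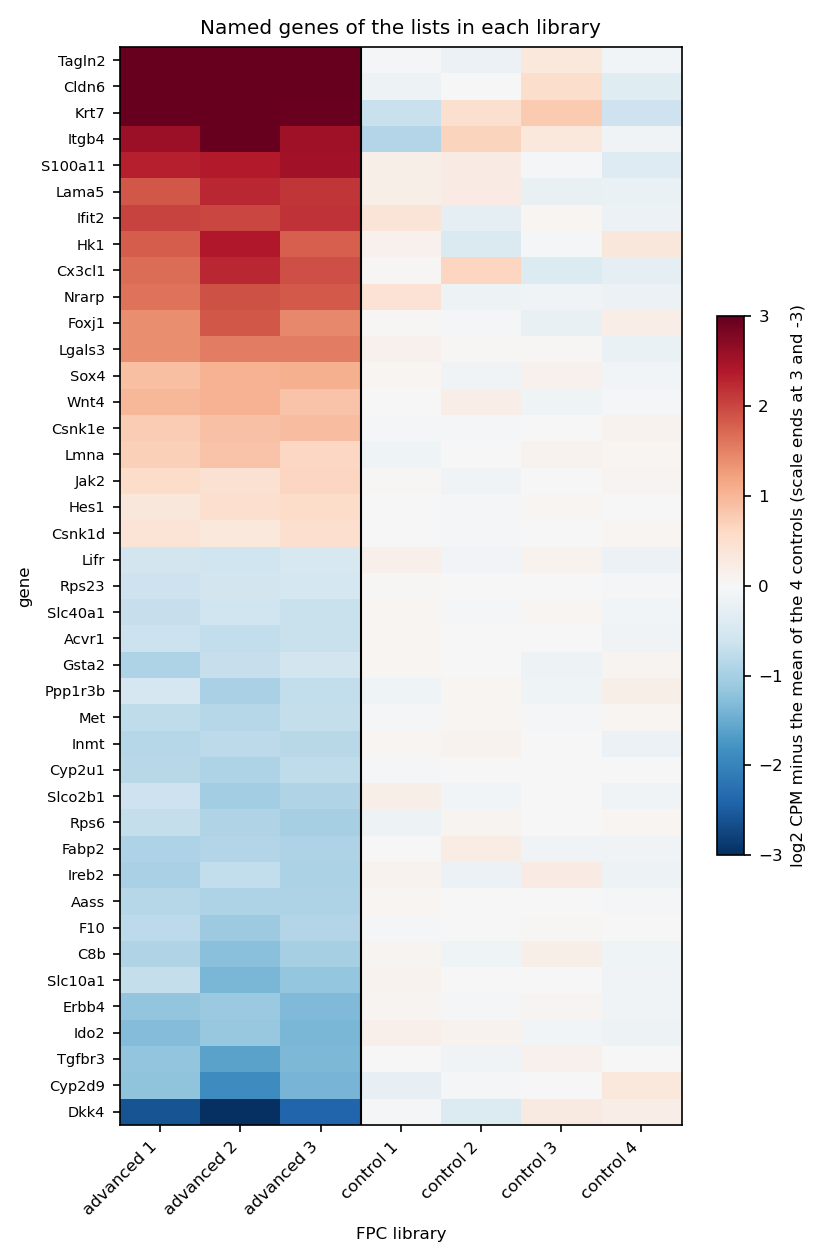
Summed peak counts of 41 named list genes in each FPC advanced and FPC control library, as log2 CPM minus the mean of the 4 controls, ordered by the fitted log2 change. The genes run from Tagln2 (log2 change 4.04) at the top to Dkk4 (-2.80) at the bottom.

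Ribosomal protein genes, used as a housekeeping set, were higher in 26 and lower in 5 of 53 (49.1% and 9.43%, median 0.26). With scaling factors from promoter peaks 19 were higher and 8 lower. Rps6 and Rps23 fell against that, with 96.2, 84.9 and 79.5 CPM in FPC advanced and 158 ± 11.5 CPM in FPC controls for Rps6 (SD, n = 4). Over its promoter peak alone Rps6 stood at -0.02 (adjusted p 0.90), against -0.86 ± 0.07 over all 6. Several ribosomal protein genes have processed copies in the genome, and reads that match those can be lost from the counts.

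The second diet gave peak sets that were called without the FPC libraries, on the shared table of peaks. A fit on the CDAHFD libraries alone called 8411 peaks higher and 6295 lower by more than 2-fold in advanced disease. The 8411 peaks held 8.01, 9.79 and 8.79% of the counts in FPC advanced and 2.84, 2.81, 2.81 and 2.80% in FPC control libraries. The 6295 peaks held 3.49, 2.67 and 3.25% in FPC advanced and 7.69, 7.61, 7.35 and 7.48% in FPC controls. In neither set did advanced and control libraries overlap (exact two-sided permutation p = 0.0571 each, the smallest possible). Mild FPC libraries lay between, at 4.92 to 5.24% and 5.2 to 5.58%. In the FPC comparison 91.7% of the first set was called higher and 90.5% of the second lower, with 5 and 15 peaks called the other way. The difference of the change between diets passed for 1.60% of peaks and 4.80% of genes.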

How the data were processed

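ATAC-seq was done on bead-bound liver nuclei with paired-end sequencing, per the labels' protocols. The submitters' processing notes name BWA 0.7.5a-r405, SAMtools, HOMER and DESeq2 and the build mm10, without their roles. The deposited table holds estimated counts, in steps of 0.5, of 68827 peaks of 200 bp in 22 libraries, not normalized by the authors as far as its label says. Counts were rounded to whole numbers, which touched the 47.8% of values that were not whole.

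edgeR 4.0.16 (R 4.3.3, limma 3.58.1) fitted 6 groups over all 22 libraries with TMM factors (0.984 to 1.02), filterByExpr, which kept all peaks, and the quasi-likelihood test with Benjamini-Hochberg adjustment over all peaks or genes. A change was called at an adjusted p under 0.05. Levels are CPM on the TMM scale, and log2 changes are FPC advanced over FPC control with their SE. Genes are sums of counts over peaks whose nearest start lies within 50 kb (82.5% of peaks, 15686 genes), and promoter peaks lie within 1 kb. The 3 and 4 libraries were numbered in accession order, as names only. Titles carry a separate number for each library, and nothing states that they are separate mice, so p-values measure the spread between these libraries.

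From each list up to 2 called genes with the smallest p were named. The 4 largest promoter rises and falls, and 2 of each beyond 50 kb, were named among called peaks above the median level whose groups did not overlap. Loci were named by the share of their at least 6 peaks called one way (4 each), and opposed genes by the largest difference (2 each). Some genes that this rule names are not reported here. Other list members describe their list and were chosen after their values were seen. The members, lists and tests were chosen with earlier results of these data known. Promoter sequences are RefSeq's on GRCm38.p6, matched by symbol for 90.3% of the peaks over a window, and their search was added after the data were seen. The test was checked on simulated counts in which few peaks changed, as many up as down. That check does not cover promoter peaks that move as a body. Alternatives included DESeq2 1.42.0, other scalings, filters and windows, thinning, leaving out each library and, added after the data were seen, using each pair of controls alone. A motif search over all peaks and a scaling by GC content needed a genome sequence, which was not used here.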

Additional observations from a re-analysis of the deposited data

Results flagged for a closer look

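The change on the FPC diet differed from that on the CDAHFD diet for 10 of 60 named items, tested as the difference of both changes in edgeR. Of all peaks 1.60% passed, and of all genes 4.80%. The items had been named by their FPC change, which is a part of that difference. Their share therefore cannot be compared with those over all peaks or genes. More closed on the FPC diet were Gsta2, a glutathione transferase (difference -0.85 on the log2 scale), Ido2 (-0.72), Aass (-0.51), F10 (-0.50), Slc40a1 (-0.39) and Acvr1 (-0.29). Gsta2 changed by -0.71 ± 0.08 on the FPC diet and by 0.14 ± 0.08 on the CDAHFD diet (adjusted p 0.15). More open on the FPC diet were the Gramd1b peak (2.27) and Ifit2 (0.98). Lgals3 rose on both diets, less on the FPC diet (-0.83). Tgfbr3 fell on both, less on the FPC diet (0.54).

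Among the 4 FPC control libraries, 1 library stood apart at 2 of 68 items by Dixon's ratio, the gap to the nearest library over the whole range, at its 95% critical value. These were the Elavl2 peak (0.860) and Nrarp (0.890). Chance flags about 1 in 20 groups. At both the control libraries still lay apart from every advanced library, which the naming rule required of the Elavl2 peak.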

How the results depend on the processing

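Named items were chosen for a small p or a large change in these same data, so their stability does not describe other calls. Leaving out each library in turn cost 23 to 58 of 454 called list genes their call. Of 1547 values of named items under 24 alternatives, 1538 kept their direction and call, 9 kept their direction without passing and none reversed. Those 9 were the Rad52 promoter, with cyclic loess offsets (0.31), without FPC advanced library 2 (0.51) and with FPC controls 2 and 4 alone (0.59), Ireb2 within 10 kb (-0.09), and over promoter peaks alone Ireb2 (-0.09), Hes1 (0.19), Csnk1d (0.03), Fabp2 (-0.31) and Rps6 (-0.02). Promoter peaks alone gave 3016 genes higher and 3056 lower, against 4817 and 4778, with 11758 genes tested. Thinning every library to the smallest total left 239 peaks and 281 genes with a difference between diets, against 1101 and 753, and 266 opposed genes, against 448. Leaving out each library gave 16280 to 18340 peaks higher and 16134 to 18499 lower, 7468 to 8100 higher and 6108 to 7237 lower over 2-fold, and 4212 to 4907 genes higher and 4204 to 4496 lower. For the difference between diets the same gave 582 to 961 peaks and 489 to 692 genes. It stood at 646 peaks and 489 genes without FPC control library 3, and at 582 peaks and 497 genes without FPC advanced library 3. It was 655 peaks with FPC controls 1 and 3 alone, and 388 peaks and 353 genes with controls 2 and 4 alone. The cause was not tested. Factors from library totals put 58.7% of gene calls higher, against 50.2%, and factors from peaks within 1 kb 38.4%. Of 968 list counts 66 moved by over 1.5 times, and 4 of 22 lists changed majority. No paired analysis was possible because the labels give no replicate number that FPC advanced and FPC control libraries share.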
